A study of Capra hircus with 3 samples.

Results

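miR-203, miR-205 and miR-31 are microRNAs (miRNAs) known from keratinocytes, the cells that build the epidermis and the outer layers of the hair follicle (HF). These 3 members were chosen by name, and 2 of them, miR-205 and miR-31, could be counted in goat skin. They are 2 of the 336 miRNA precursors named in the part used here of the study's list of sequenced tags annotated against bovine precursors. A tag is a distinct small RNA sequence with its number of reads, and a read belonged to a member when its tag shared the first 18 nt with a tag listed for it. miR-203 was not analysed here, because the sources used hold no sequence under that name. Flank skin of adult Shanbei White cashmere goats of both sexes was sampled in anagen (fibre growth), catagen (regression) and telogen (rest), and the RNA of 10 goats was pooled into 1 small RNA library for each stage. The anagen library held 15997828 clean reads, the catagen library 18111912 and the telogen library 27016012, with tags of 18 to 44 nt. With 1 pool a stage there is no replicate check, and a difference between stages cannot be told apart from a difference between pools.

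A miRNA precursor folds into a hairpin, and Dicer cuts from it a duplex whose strands come from the 5p and the 3p arm. As a rule one arm is loaded into Argonaute and guides it to messenger RNAs through its seed, bases 2 to 8, while the other arm is mostly degraded. miR-205 is abundant in stratified epithelia and in epidermal and HF progenitor cells, where it restrains inhibitors of PI3K signalling, and it also represses the ZEB transcription factors. miR-31 is expressed in HF and in proliferating or wounded epidermis. The study cites earlier work in which its level rises in anagen and falls in catagen and telogen. miR-203 acts in the suprabasal layers, where it represses p63 and promotes the exit from proliferation.

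The most read tag of each arm is shown here from the deposited files, because all counts below rest on these starts, with the seed in capitals and T standing for U.
miR-205-5p: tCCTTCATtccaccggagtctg
miR-205-3p: gATTTCAGtggagtgaagct
miR-31-5p: aGGCAAGAtgctggcatagctg
miR-31-3p: tGCTATGCcaacatattgccatc
The list holds 5 starts for the members, namely 1 for miR-205-5p, 1 for miR-205-3p and 3 overlapping starts for miR-31-3p. The part used here holds none for miR-31-5p, so this arm was sought in the tags as the duplex partner of miR-31-3p. Among 2164 starts with at least 1000 reads, the partner with the lowest duplex energy was the tag shown (-27.2 kcal/mol against -22.6 for the next start that neither overlaps it nor lies within 3 mismatches of it). The same search from miR-205-3p returned the listed start of miR-205-5p (-24.0 against -17.9 kcal/mol). None of the 865 listed starts shares a seed with any of the 4 arms, outside the arm itself.

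The level of miR-205-5p, the guide arm, was lower in anagen than in catagen and telogen. Its 15845 reads in anagen are 990.4 TPM (95% Poisson interval 975.1 to 1006), where TPM is the number of reads per 1000000 clean reads of the library. The 32423 reads in catagen are 1790 TPM (1771 to 1810), and the 50319 reads in telogen are 1863 TPM (1846 to 1879). The anagen library stood alone at the low end, and the other two lay within a factor of 1.04 of each other. Among the 864 starts counted (the 865 listed, with those of miR-31-3p joined, and miR-31-5p), miR-205-5p ranked 22 in anagen, 20 in catagen and 15 in telogen by reads. Intervals cover counting error only, as PCR copies of a molecule are counted as separate reads.

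miR-31-5p, the guide arm of the other precursor, was lowest in anagen and highest in telogen when scaled to clean reads, although the size of its difference between anagen and catagen depended on the scaling. It had 3981 reads in anagen (248.8 TPM, 241.2 to 256.7), 5816 in catagen (321.1 TPM, 312.9 to 329.5) and 10597 in telogen (392.2 TPM, 384.8 to 399.8). None of these 3 intervals overlap. This order is not that of the earlier work cited by the study, and the reason was not tested. Its rank among the 864 starts was 37 in anagen against 40 in catagen and 34 in telogen.

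The lesser arms were far less abundant and followed different orders over the stages. miR-205-3p had 232 reads in anagen (14.5 TPM, 12.7 to 16.5), 64 in catagen (3.53 TPM, 2.72 to 4.51) and 360 in telogen (13.3 TPM, 12.0 to 14.8). It was thus lowest in catagen, and its intervals in anagen and telogen overlap. miR-31-3p had 133 reads in anagen (8.31 TPM, 6.96 to 9.85), 305 in catagen (16.8 TPM, 15.0 to 18.8) and 741 in telogen (27.4 TPM, 25.5 to 29.5), the same order as its 5p arm.

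**Figure D1:**
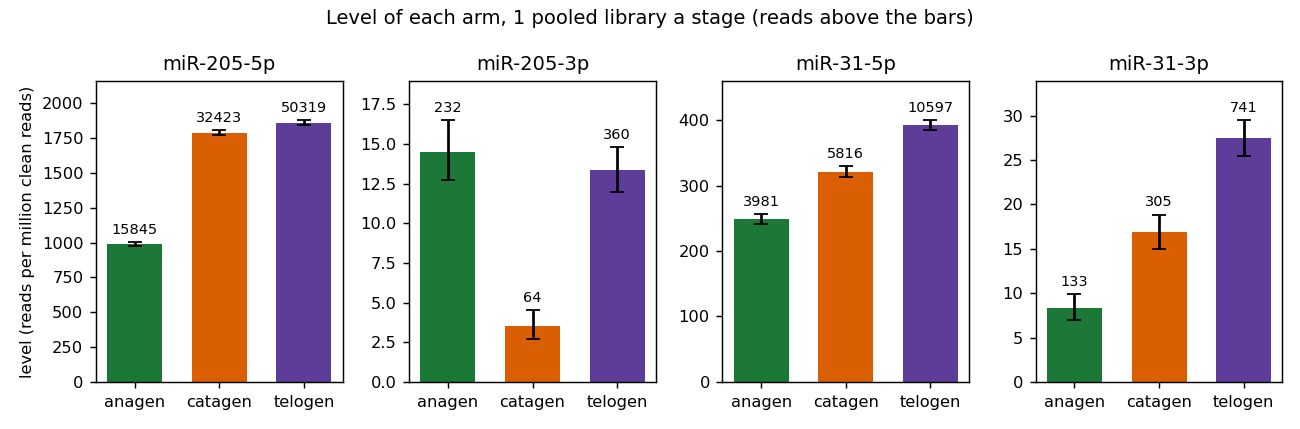
Level of each arm in TPM (y axis, linear from 0, a scale for each panel) in the anagen, catagen and telogen libraries; bars are the level, lines the 95% Poisson interval and numbers the reads. miR-205-5p, miR-31-5p and miR-31-3p are lowest in anagen, while miR-205-3p is lowest in catagen with 64 reads.

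For each pair of libraries the ratio of TPM was tested on the reads with the exact test of Audic and Claverie (two-sided), as in the methods of the study, over all starts that reached 1 TPM in either library. The p-values were adjusted over all of these starts (Benjamini-Hochberg). The limits for a call were an unadjusted p below 0.01 and a log2 ratio beyond 1 in either direction. The test compares the libraries and not the stages.

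Between anagen and catagen, both arms of miR-31 and the guide arm of miR-205 had ratios below 0, and miR-205-3p a ratio above 0. The log2 ratio of anagen over catagen was -0.85 for miR-205-5p (exact 95% interval -0.88 to -0.83), within the limit of 1, although p was too small to be computed. For miR-31-5p it was -0.37 (-0.43 to -0.31, exact test, adjusted p = 7.54e-35), also within the limit. It was -0.07 with size factors from the median of ratios (exact test, p = 0.0161) and -0.05 with TMM scaling (exact test, p = 0.0730), and the ratio of miR-205-5p was -0.56 and -0.54 with the same scalings. The lesser arms were both called, miR-205-3p at 2.04 (1.63 to 2.46, exact test, adjusted p = 9.13e-28) and miR-31-3p at -1.02 (-1.32 to -0.72, exact test, adjusted p = 1.11e-11). Of the 434 starts tested, 111 (25.6%) passed, of all those tested 6.68% as higher and 18.9% as lower in anagen, so that 1 higher and 1 lower arm among 4 are to be read against these shares. For miR-205-3p the ratio turned to -0.57 in tags of 21 nt or longer, without a call, and with an assumed coefficient of variation of 0.4 in edgeR's exact test the call was lost (p = 0.0222). The interval of miR-31-3p spans the limit, and with size factors from the median of ratios its ratio was -0.72, without a call.

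Between anagen and telogen, the log2 ratio was -0.91 for miR-205-5p (-0.94 to -0.89), again within the limit and with a p below what can be computed. It was -0.66 for miR-31-5p (-0.71 to -0.60, exact test, adjusted p = 1.58e-139). miR-31-3p was called at -1.72 (-2.0 to -1.45, exact test, adjusted p = 9.88e-46). For miR-205-3p the libraries could not be distinguished by counting (0.12, -0.12 to 0.36, exact test, adjusted p = 0.367). In this pair 113 of 421 starts (26.8%) passed, of all those tested 10.5% as higher and 16.4% as lower in anagen, against 1 lower arm of the 4. When scaled to the reads of all listed starts, miR-205-5p passed the limit at -1.23.

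Between catagen and telogen the guide arms differed little when scaled to clean reads. The log2 ratio of catagen over telogen was -0.06 for miR-205-5p (-0.08 to -0.04, exact test, adjusted p = 9.19e-08) and -0.29 for miR-31-5p (-0.34 to -0.24, exact test, adjusted p = 3.11e-34). That of miR-31-3p was -0.70 (-0.90 to -0.51, exact test, adjusted p = 9.21e-13), without a call. miR-205-3p was called at -1.92 (-2.32 to -1.53, exact test, adjusted p = 3.59e-28). In tags of 21 nt or longer its ratio was -0.57 without a call, and the call was also lost with the assumed coefficient of variation of 0.4 (edgeR's exact test, p = 0.0313). The background was 77 calls among 424 starts, or 18.2%, with 10.4% higher and 7.78% lower in catagen, against 1 lower arm of the 4. The size and the sign of the small ratio of miR-205-5p depended on the scaling. It turned to 0.03 when the reads of muscle miRNAs were taken out of the totals. Scaled to the reads of all listed starts it was -0.37, with size factors from the median of ratios -0.20 and with TMM scaling -0.22. For miR-31-5p the last 3 scalings gave -0.60, -0.43 and -0.45.

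**Figure D2:**
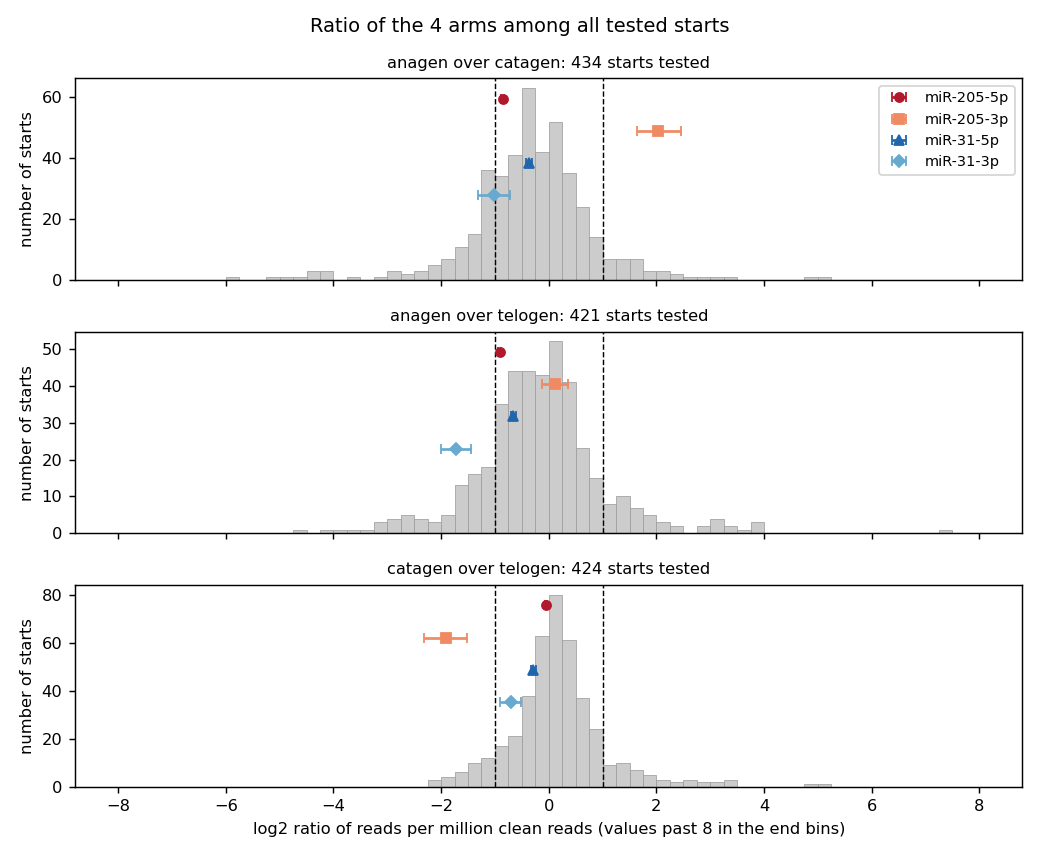
Log2 ratio of TPM (x axis) of all tested starts as grey histograms (y axis, number of starts) for the 3 pairs, with the 4 arms drawn as points at arbitrary heights with exact 95% intervals and the limit of 1 as dashed lines. The guide arms lie inside the dashed lines in every pair, and miR-205-3p lies outside them in both pairs that hold catagen.

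The median of the starts was also lower in anagen, although many starts were higher. For starts that had 100 reads or more in each library of a pair, the median was -0.28 for anagen over catagen on the log2 scale (191 starts) and -0.15 for anagen over telogen (196 starts). For catagen over telogen it was 0.11 (217 starts). In anagen over catagen, 34.1% of all tested starts had a larger absolute ratio than miR-205-5p and 67.1% a larger one than miR-31-5p. In anagen over telogen these shares were 32.5% and 46.3%.

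Levels of the markers of epithelial cells are given beside those of the members, and the difference between them was not tested. The list of 8 miRNAs (the miR-200 family members miR-200a, miR-200b, miR-200c, miR-141 and miR-429, and the miR-183, miR-96 and miR-182 cluster) has 22 listed starts. Its summed level was 297.5 TPM in anagen against 252.8 in catagen and 264.4 in telogen. The listed starts of miR-200a overlap each other, as do those of miR-200b, and miR-200c has only 1. The other arm of these miRNAs is therefore not in the sum, which is not their whole level. Of the 8 tested starts of the list, 0 were called between anagen and catagen by the exact test and 0 between catagen and telogen. A start of miR-200a, with 21 against 12 reads, was the only 1 called higher in anagen than in telogen. Over all tested starts, 25.6% were called between anagen and catagen, 18.2% between catagen and telogen, and 10.5% as higher in anagen than in telogen. The most read miRNA of the list, miR-183, had 158.6, 108.8 and 101.7 TPM in anagen, catagen and telogen. It was highest where miR-205-5p was lowest, and the higher sum in anagen rests on it. Of its 5 listed starts, 1 held 2271 of its 2538 reads in anagen, 1753 of 1970 in catagen and 2423 of 2748 in telogen. Whether the listed starts hold the whole level of miR-183 was not tested. The log2 ratio of anagen over catagen was below 0 for miR-200b (-0.303), miR-96 (-0.239) and miR-200c (-1.143). It was above 0 for miR-200a (0.246), miR-141 (0.067), miR-429 (0.044) and miR-182 (0.071). For anagen over telogen it was below 0 for miR-200b (-0.268), miR-429 (-0.312), miR-96 (-0.589), miR-182 (-0.106) and miR-200c (-2.414). There, miR-200a (1.128) and miR-141 (0.01) were above 0. The only listed start of miR-200c had 2, 5 and 18 reads. The level in whole skin depends on how much of the sample is epithelium, and fewer cells of a type and less RNA per cell cannot be told apart in these libraries.

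Marker miRNAs of other tissues had unequal levels in the libraries, as far as the part of the list used here holds their starts. Calls below are to be read against all tested starts. Of these, 18.9% were called lower and 6.68% higher in anagen than in catagen, and 16.4% lower and 10.5% higher in anagen than in telogen. In catagen against telogen, 7.78% were called lower and 10.4% higher. Several starts of a list can be shifted forms of a single arm, so they are not separate miRNAs. The list of skeletal muscle (miR-133a, miR-133b, miR-206 and miR-1) summed to 4117 TPM in anagen against 78789 in catagen and 21405 in telogen. Of its tested starts, 12 of 12 were called lower in anagen than in catagen, and 8 of 9 lower and 1 higher in anagen than in telogen. In catagen, 10 of 12 were called higher than in telogen. The red blood cell list (miR-451, miR-144 and miR-486) summed to 1312, 2137 and 878.5 TPM, with 2 of 7 starts lower in anagen than in catagen, 3 of 6 higher in anagen than in telogen and 6 of 7 higher in catagen than in telogen. The list of dermal fibroblasts (miR-199a, miR-214 and miR-152) summed to 13725, 26140 and 19634 TPM, with 2 of 6 starts lower in anagen than in catagen, 1 of 5 higher in anagen than in telogen and 3 of 6 higher in catagen than in telogen. The listed starts of the smooth muscle list (miR-143 and miR-145) summed to 334.8, 123.2 and 123.5 TPM. Of these starts, 1 of 5 was higher in anagen than in catagen, and 1 higher and 1 lower of 6 against telogen. Between catagen and telogen, 0 of 6 were called by the exact test. The study names miR-143 among the most read miRNAs of every stage, with far more reads than the starts used here hold. Most reads of miR-143 are therefore not in this sum. The sum is not the level of the smooth muscle miRNAs, and its order over the stages may not be theirs. The immune list (miR-223, miR-142 and miR-155, with no listed start for miR-150) summed to 131.0, 183.5 and 223.3 TPM, with 2 of 8 starts lower in anagen than in catagen, 4 of 8 lower in anagen than in telogen and 2 of 8 lower in catagen than in telogen. miR-211 of melanocytes summed to 14.2, 19.4 and 7.85 TPM, and its 1 tested start was called higher in catagen than in telogen. The part of these shifts in the ratios of miR-205 and miR-31 was not tested, but without the muscle reads in the totals the ratio of miR-205-5p in anagen over catagen was -0.97 and that of miR-31-5p was -0.48.

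A further list of 8 miRNAs with roles in HF or keratinocytes (miR-21, miR-22, miR-24, miR-34a, miR-125b, miR-196a, miR-214 and miR-218) is described by its counts and sum. Its summed level was 3052 TPM in anagen against 5477 in catagen and 4676 in telogen. Most of this sum is miR-21, and it covers only the listed starts used here, which may not hold every arm. Those of miR-24 had 153, 210 and 262 reads in anagen, catagen and telogen, and those of miR-214 had 10, 27 and 44. Of its tested starts, 3 of 11 were called lower in anagen than in catagen and 2 of 12 lower in anagen than in telogen, against 18.9% and 16.4% of all tested starts, with 0 higher in either pair by the exact test and 0 of 12 called between catagen and telogen. The median log2 ratio of its starts was -0.66 for both anagen pairs. miR-21, the most read, had 2324, 3672 and 2725 TPM, and miR-125b, a brake on the differentiation of skin stem cells, had 514.5, 1395 and 1651 TPM.

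Among 188 other starts with at least 100 reads in every library, those nearest to miR-205-5p in log2 TPM centred over the 3 libraries were of miR-532 (distance 0.042, with 15.2, 26.3 and 27.9 TPM), miR-184 (0.055, with 44.4, 80.1 and 79.7 TPM) and miR-2904-3 (0.070, with 76.3, 138.3 and 135.4 TPM). Those nearest to miR-31-5p were of miR-26a-2 (0.013, with 3391, 4382 and 5406 TPM), miR-193b (0.077) and miR-877 (0.087). These distances rest on 3 libraries, and 11 starts lay within 0.25 of miR-205-5p and 22 within 0.25 of miR-31-5p.

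The share of the lesser arm was lowest in anagen for miR-31 and, over all tags, highest in anagen for miR-205. Of the reads of both arms of miR-31, the 3p arm held 3.23% in anagen (2.74 to 3.82, Wilson 95% intervals here and for all shares below). This share was 4.98% (4.47 to 5.56) in catagen and 6.54% (6.10 to 7.01) in telogen. For miR-205 the share of 3p was 1.44% in anagen (1.27 to 1.64) but 0.197% (0.1543 to 0.2515) in catagen and 0.710% (0.641 to 0.787) in telogen. The order of miR-31 held in tags of 21 nt or longer, with 3.18%, 4.95% and 6.42%. That of miR-205 did not, since the same tags gave 0.172% in anagen (25 reads of 3p), 0.131% in catagen (42 reads) and 0.192% in telogen (93 reads), and these intervals overlap.

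**Figure D3:**
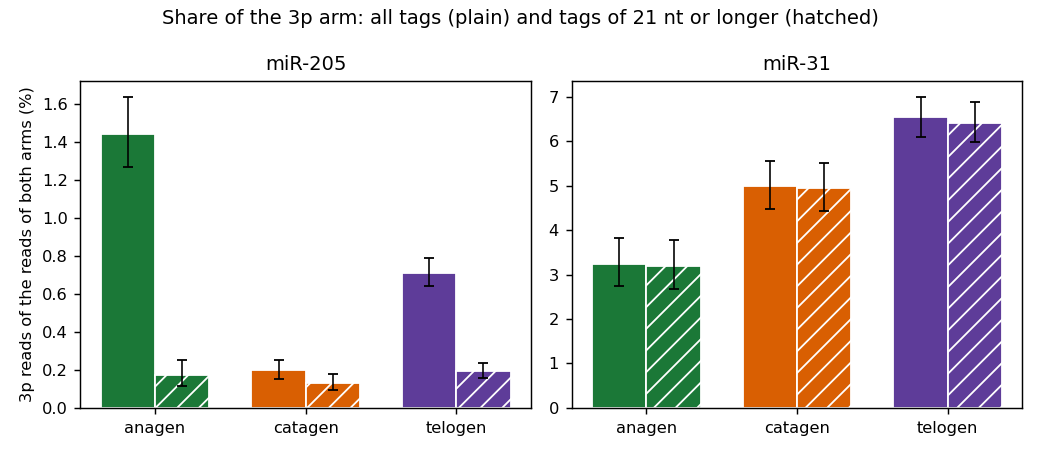
Reads of the 3p arm as percent of the reads of both arms (y axis) of miR-205 and miR-31 in each library, for all tags (plain bars) and for tags of 21 nt or longer (hatched bars), with 95% Wilson intervals. The share of miR-31-3p is lowest in anagen and highest in telogen with either count (3.23% and 6.54% for all tags, 3.18% and 6.42% for the longer ones), while that of miR-205-3p in anagen drops from 1.44% to 0.172% in the longer tags.

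The main variants of miR-205-3p differ in their 3′ end and had unequal shares in the libraries. They are shown with the bases after the shared 18 nt in capitals.
miR-205-3p of 20 nt: gatttcagtggagtgaagCT
miR-205-3p of 22 nt: gatttcagtggagtgaagCTCA
miR-205-3p of 19 nt: gatttcagtggagtgaagC
The tag of 20 nt had 148 reads in anagen against 18 in catagen and 220 in telogen, which is 63.8% (57.4 to 69.7), 28.1% (18.6 to 40.1) and 61.1% (56.0 to 66.0) of the arm. The tag of 22 nt had 18 reads in anagen (7.76%, 4.96 to 11.9), 32 of 64 in catagen (38.1 to 61.9%) and 70 in telogen (19.4%, 15.7 to 23.9). Tags of 18 to 20 nt together held 89.2% of the arm in anagen against 34.4% in catagen and 74.2% in telogen. Counted in tags of 21 nt or longer, the log2 ratio of anagen over catagen was -0.57 in place of 2.04, and that of anagen over telogen was -1.14, with a call. In miR-31-3p, tags of 18 to 20 nt held 3.01%, 0.984% and 2.43% of the arm.

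miR-205-5p also ended earlier in anagen. Its main variants differ in where the 3′ end falls, again with the bases after the shared 18 nt in capitals.
miR-205-5p of 21 nt: tccttcattccaccggagTCT
miR-205-5p of 22 nt: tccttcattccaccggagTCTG
miR-205-5p of 23 nt ending in T: tccttcattccaccggagTCTGT
miR-205-5p of 23 nt ending in A: tccttcattccaccggagTCTGA
The tag of 21 nt held 33.5% of the reads of the arm (32.8 to 34.2) in anagen, 25.6% (25.1 to 26.1) in catagen and 27.2% (26.9 to 27.6) in telogen. The tag of 22 nt held 33.3%, 33.7% and 37.1%, respectively. The tag of 23 nt ending in T held 18.8% (18.2 to 19.4) in anagen, 31.7% (31.2 to 32.3) in catagen and 25.3% (24.9 to 25.7) in telogen, so that catagen had the longest and anagen the shortest form. Reads of 18 to 20 nt made up 8.41% of the arm (7.99 to 8.86) in anagen, 1.147% (1.04 to 1.27) in catagen and 3.88% (3.71 to 4.05) in telogen. Over all listed starts, such short reads made up 5.25%, 1.91% and 2.90% of the reads in the 3 libraries, and over all clean reads 10.6%, 7.58% and 6.29%.

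miR-31-5p showed the same order of short forms at a lower level. Reads of 18 to 20 nt were 1.48% of the arm (1.151 to 1.91) in anagen, 0.258% (0.156 to 0.425) in catagen and 0.519% (0.399 to 0.675) in telogen. Its variants of 21 to 23 nt are shown for comparison with those of miR-205-5p.
miR-31-5p of 21 nt: aggcaagatgctggcataGCT
miR-31-5p of 22 nt: aggcaagatgctggcataGCTG
miR-31-5p of 23 nt ending in T: aggcaagatgctggcataGCTGT
miR-31-5p of 23 nt ending in A: aggcaagatgctggcataGCTGA
The tag of 21 nt held 20.1% of the arm (18.9 to 21.4) in anagen, 11.7% (10.9 to 12.5) in catagen and 12.7% (12.1 to 13.3) in telogen. The tag of 22 nt held 31.5%, 35.95% and 37.1%, and that of 23 nt ending in T held 33.0%, 36.8% and 35.3%. As a share of the arm, the tag of 21 nt was thus highest in anagen for both guide arms. For miR-31-3p the tag of 23 nt held 39.8%, 40.3% and 41.8% of the arm, and these intervals overlap.

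**Figure D4:**
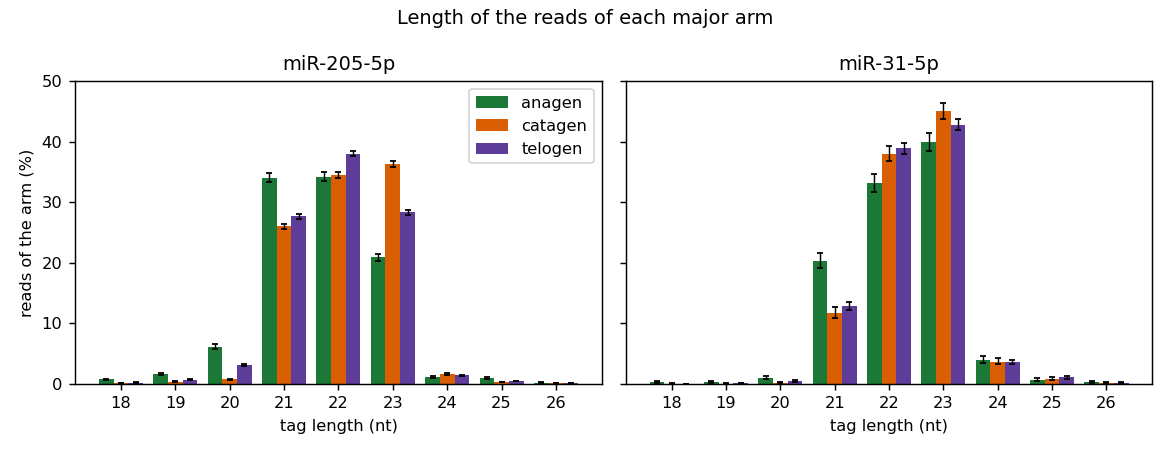
Percent of the reads of miR-205-5p and miR-31-5p (y axis) at each tag length from 18 to 26 nt (x axis) in the anagen, catagen and telogen libraries, with 95% Wilson intervals. In miR-205-5p the reads of 23 nt are 20.9% in anagen against 36.3% in catagen and 28.3% in telogen, and in miR-31-5p the reads of 21 nt are 20.3%, 11.7% and 12.8%.

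The longest tag listed for miR-205-5p, tCCTTCATtccaccggagtctgtct (25 nt, seed in capitals), gives the bases that follow in the annotated precursor, so that a read can be an exact part of it or carry other bases at its end. Exact parts held 93.9% of the arm (93.6 to 94.3) in anagen, 92.2% (91.9 to 92.5) in catagen and 93.5% (93.3 to 93.8) in telogen. Among the reads with a single other base at the 3′ end, most had an A. They were 2.67% (2.43 to 2.93) in anagen, 5.11% (4.88 to 5.36) in catagen and 3.46% (3.302 to 3.62) in telogen. An added T was seen in 0.940%, 1.05% and 1.11% of the reads. Where the next base of the longest listed tag is T, as after the most read form of 22 nt, an added T counts as an exact part. The shares of added A and added T can therefore not be compared. The main variant with a single other base, of 23 nt ending in A, held 1.65%, 3.98% and 2.44%. In miR-31-3p a single added A was 5.56% (7 reads), 6.42% (19 reads) and 5.67% (41 reads) of the main start, not distinguishable at this depth. For miR-31-5p no listed tag gives the bases that follow, and its variant of 23 nt ending in A held 5.25% (4.60 to 5.99), 7.05% (6.42 to 7.74) and 6.41% (5.96 to 6.89).

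The 5′ end, which sets the seed, was nearly constant in the guide arms. A start 1 nt later was found for 17 reads of miR-205-5p in anagen against 11 in catagen and 32 in telogen, which is at most 0.107% of the reads of the main and the shifted start. For miR-31-5p it was 8, 7 and 6 reads, at most 0.201%. A start 2 nt later was more frequent in miR-205-5p in anagen, with 117 reads (0.733%, 0.612 to 0.878), against 52 in catagen (0.160%) and 37 in telogen (0.0735%). The 2 listed shifted starts of miR-31-3p, 1 nt later and 1 nt earlier, had 5 and 2 reads in anagen against 8 and 1 in catagen and 10 and 8 in telogen. These would carry the seeds CTATGCC and TGCTATG in place of GCTATGC.

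Tags that differ from the 18 nt start of a guide arm by a single base were most frequent in anagen. Relative to the reads with the exact start and those with a single mismatch, they were 4.47% for miR-205-5p (4.16 to 4.79) in anagen, 1.82% (1.68 to 1.97) in catagen and 2.32% (2.19 to 2.45) in telogen. For miR-31-5p they were 3.28% (2.78 to 3.87), 0.734% (0.545 to 0.987) and 1.08% (0.904 to 1.30). Positions are counted from 1 at the 5′ end, with the base of the exact start first. Over the 3 libraries together, the most frequent mismatch of miR-205-5p was C3T, in the seed, with 265 reads in anagen (1.64%) against 130 in catagen (0.399%) and 236 in telogen (0.467%), followed by C10T with 97, 133 and 200 reads. The median over all single substitutions of this start was 0.0189% in anagen against 0.00925% in catagen and 0.0119% in telogen. Such mismatches were not counted for starts outside the members, so whether the order is particular to these arms was not tested. Counting all tags within 1 mismatch, the share of the 3p arm was 1.40%, 0.193% and 0.704% for miR-205 and 3.20%, 5.01% and 6.50% for miR-31.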

How the data were processed

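Small RNA was sequenced in 1 library a stage, with RNA from 10 goats mixed. The deposited files give unnormalised read counts of tags, made by the authors from clean reads after poor base calls, primer faults, poly(A) and inserts shorter than 18 nt were discarded. Programs and versions of this filtering are not given in the sources used here, and no alignment enters the counts.

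Tags were joined to the starts (first 18 nt) of the tags in the study's list of annotated tags, of which a part was used. It holds 2697 distinct tags with 865 starts. Arms are named 5p and 3p by convention. The partner of miR-31-3p was sought with RNAduplex (ViennaRNA 2.7.2) among the most read tags, of 20 to 25 nt, of starts with at least 1000 reads. No reference hairpin or genome was used. Counts were scaled to TPM by clean reads, and a value of 0 was set to 0.01 TPM. A start had to reach 1 TPM in either library to be tested. The Audic-Claverie test was computed with SciPy 1.17.1. Intervals of 95% are exact Poisson, Clopper-Pearson or Wilson. A count of 0 allows up to 3 reads, which is 0.188 TPM in anagen, 0.166 in catagen and 0.111 in telogen. edgeR 4.0.16 and DESeq2 1.42.0 gave alternative scalings and tests; the quasi-likelihood test needs replicates and could not be fitted. Counts of 864 starts were simulated with Poisson noise alone and with changes planted well past the limit. Among deep starts (100 reads or more), the exact test called 33 of 33 changed and 0 of 161 unchanged for anagen over catagen. It called 39 of 39 and 0 of 161 for anagen over telogen, and 35 of 35 and 0 of 176 for catagen over telogen. The simulation holds no variation between pools, so it checks the computation and not the calls between stages.

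Named were all arms of the members, their most read variants (up to 5), the 3 nearest starts, starts that share a seed, and of each marker list its counts and most read miRNAs. The substitutions and starts described beside these, and single values of the marker lists, were chosen after their values were seen. The members and lists were chosen with earlier results of these data known.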

Additional observations from a re-analysis of the deposited data

Results flagged for a closer look

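Tags outside the counted starts held a signal near miR-31-5p that differed between the libraries. A start that differs from the first 18 nt of miR-31-5p at the 2 adjacent positions 11 and 12 had 239 reads in catagen and 169 in telogen, above the 3 reads that a count of 0 allows, and 1 read in anagen. This is 4.11, 1.59 and 0.0251 reads per 100 reads of miR-31-5p, respectively, and the reads lie in 10 distinct tags in catagen and 8 in telogen. All other starts with 2 mismatches to miR-31-5p had at most 2 reads each in any of the libraries. For miR-205-5p the most read start with 2 mismatches had 24, 29 and 18 reads in anagen, catagen and telogen. The start is in none of the listed tags held here and enters no count of the report, and whether it is transcribed from the goat genome was not tested.

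In anagen alone, 2 single mismatches of miR-31-5p stood out. A8C had 35 reads and A16C 36 reads in anagen, which is 0.872% and 0.896% of the reads with that mismatch or the exact start. In catagen they had 0 and 1 reads, and in telogen both had 0. The next mismatch, C11T, had 9, 8 and 15 reads in the 3 libraries. The source of these reads was not tested.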

How the results depend on the processing

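Of 138 ratios of an arm under an alternative, 120 kept their direction and their side of the limits. Part of these could not change. Fisher's exact test and edgeR's exact test keep the main ratio, so that an arm within the limit of 1 stays uncalled under them. Scaling to the epithelium list moved the ratios of miR-205-5p. This list lacks an arm of miR-200a, miR-200b and miR-200c, and its higher sum in anagen rests on miR-183. The scaling brought anagen over catagen (log2 ratio -1.09) and anagen over telogen (-1.08) past the limit, and turned catagen over telogen to 0.0076. The totals without muscle reads, added after the data were seen, turned catagen over telogen to 0.03. For anagen over telogen miR-205-5p also passed when scaled to all listed starts (-1.23) and with its most read tag (-1.07). Scaled to all listed starts, miR-31-3p in catagen over telogen passed at -1.02. Size factors from the median of ratios and TMM took the call of miR-31-3p in anagen over catagen (-0.72 and -0.70). For miR-205-3p, anagen over telogen turned to -0.19 with all listed starts, -0.048 with the epithelium list and -1.14 with tags of 21 nt or longer. Such tags also turned its anagen over catagen ratio to -0.57 and took the call in catagen over telogen (-0.57). With an assumed coefficient of variation of 0.4 in edgeR's exact test, the ratios stay as they are, but the calls of miR-205-3p (2.04 and -1.92) and miR-31-3p (-1.02 and -1.72) were lost, and the starts called were 20, 29 and 12 in the 3 pairs, taken in the order of the report. Where each library of a pair had to hold 100 reads or more of a start, 29 of 191, 24 of 196 and 25 of 217 were called. These are smaller shares than the 111 of 434, 113 of 421 and 77 of 424 called over all tested starts. Counting 1 start a precursor (also added after the data were seen) gave 59 of 221, 52 of 219 and 30 of 221.

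The share of the 3p arm of miR-205 moved to 0.172%, 0.131% and 0.192% in anagen, catagen and telogen with tags of 21 nt or longer, and to 2.73% in anagen and 1.16% in telogen with the most read tags. That of miR-31 moved to 4.06% in anagen and 7.32% in telogen with the most read tags. Counted over distinct tags in place of reads, tags of 18 to 20 nt were 6.87%, 5.48% and 3.92% of those of miR-205-5p and 6.85%, 5.88% and 4.26% of those of miR-31-5p. The 2 alternatives that need a reference hairpin were not run. No paired analysis was possible because each stage has 1 library.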
